A study of Mus musculus with 9 samples.

Results

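Cholesterol efflux and lipid scavenging genes decide how much sterol and lipid a macrophage takes up, stores and gives back. The 10 genes described here include the regulators Nr1h3 and Mylip and the efflux genes Abca1, Abcg1 and Apoe. The others are the receptors Cd36, Msr1 and Olr1, and the lipid handling genes Lpl and Plin2. Each of the 10 was matched by the gene symbol of its probe set, and all 10 were found among 19505 named genes. Where a gene has several probe sets, the 1 used is chosen by its mean over the 9 arrays, but each of the 10 genes had only 1. The genes were put together with earlier results of these data in view, so their levels by group and by array number are given as a description, and the list itself supports nothing.

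RNA was measured on 9 expression arrays of bone-marrow-derived macrophages from wildtype C57BL/6 mice, with 3 arrays in each of 3 groups. All marrow cells were differentiated over 7 days with 10% serum and macrophage colony-stimulating factor. Its concentration is 10 ng/ml in the growth protocol but 20 ng/ml in the series description. Every group was then given interleukin 4 (IL-4), 20 ng/ml, during 24 h. IL-4 drives the state often called M2 or anti-inflammatory. The groups received vehicle, the siderophore-binding protein lipocalin 2 (LCN2) on day 7 at a dose not given in the labels, or recombinant mouse LCN2 at 150 ng/ml from day 0. No untreated or IL-4-free macrophages are among the 9 arrays, so what IL-4 itself does to these genes cannot be read here. Nothing in the labels says whether the 3 arrays of a group come from separate mice or cultures, so a p-value here reflects the spread of these samples alone, and that spread may be technical.

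As background, cells cannot break down the sterol ring, so a macrophage that has taken up lipoproteins must esterify cholesterol into droplets or export it. The liver X receptor LXR alpha, the product of Nr1h3, is a nuclear receptor that oxysterols switch on, and it raises transcription of Abca1, Abcg1, Apoe, Lpl and Mylip. Scavenger receptors take up oxidised lipoproteins with no feedback from the cell's cholesterol, and in the artery wall this turns macrophages into foam cells. IL-4 is known to raise Cd36 in mouse macrophages.

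Levels are RMA values, a log2 scale on which probe sets are summarised after the arrays have been made alike, and a difference of 1 is a doubling. Levels of different genes were not set against each other, since each probe set has its own brightness. Array medians lay between 5.60 and 5.69. Genes whose mean lay under 5.66, the median of all probe-set means, were left out as dim, which kept 10042 genes for testing. All 10 members were kept, but Olr1 was kept only through its 3 bright arrays: on the other 6 its level lay under that limit. The macrophage genes Adgre1 (between 11.62 and 11.97) and Csf1r (the receptor for macrophage colony-stimulating factor, between 11.97 and 12.16) were bright on every array. All 5 adipocyte markers named in the table (Adipoq, Plin1, Lep, Cidec and Retn) lay below the dim limit, with a list mean of 4.05 to 4.31 on the 9 arrays. The 3 arrays with number 1 in their title, 1 in each group, stood apart from the rest. They lay all above the other 6 arrays for 11.8% of the genes tested and all below for 23.6%. What the number stands for is not given in the labels, so the split is described by number, and the LCN2 differences of the members are also given without those 3 arrays.

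The members that separated the arrays most were Abca1 and Olr1, and the bases before their start sites are shown here because the strongest pattern of the set lies in these 2 genes. They are the 250 bases upstream of the RefSeq start site on GRCm38.p6, 5′ to 3′ on the gene's own strand, with matches to the motifs named next in capitals. Abca1 lies on the minus strand, with the window at chr4:53159896-53160145, and Olr1 on the minus strand, with the window at chr6:129507166-129507415.
Abca1: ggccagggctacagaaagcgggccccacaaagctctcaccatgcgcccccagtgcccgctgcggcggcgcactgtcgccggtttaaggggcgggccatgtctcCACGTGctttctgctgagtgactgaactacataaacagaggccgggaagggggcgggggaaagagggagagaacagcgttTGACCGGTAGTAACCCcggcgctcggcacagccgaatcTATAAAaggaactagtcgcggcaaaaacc
Olr1: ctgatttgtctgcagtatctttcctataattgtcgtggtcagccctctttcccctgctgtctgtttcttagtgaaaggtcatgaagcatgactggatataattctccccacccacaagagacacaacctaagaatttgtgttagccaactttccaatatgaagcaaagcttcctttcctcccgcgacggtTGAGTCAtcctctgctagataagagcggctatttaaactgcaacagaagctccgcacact

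Both strands of these windows were searched for 5 motifs. The first, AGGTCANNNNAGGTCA with up to 3 mismatches, is DR4, the direct repeat that LXR binds with its partner RXR. An AP-1 match was spelled TGANTCA, the site of Fos and Jun proteins. The E-box was spelled CACGTG, which basic helix-loop-helix factors bind. PU.1, the factor that sets macrophage identity, was searched as GAGGAAG. The TATA motif near many start sites was searched as TATAAA. In Abca1 a DR4 match on the strand opposite the gene, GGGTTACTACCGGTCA, has 3 mismatches and runs from -67 to -52 relative to the start site. In the window above it is printed as its reverse complement. The same window holds CACGTG at -147 to -142 and TATAAA at -29 to -24, and no 2 matches overlap. Olr1 holds 1 match, TGAGTCA at -60 to -54, and none of the other 4 motifs. Of all 32851 RefSeq promoter windows of the same length, 18.5% hold a DR4 match at this tolerance, 6.75% an AP-1 match, 6.02% an E-box, 10.6% a PU.1 match and 12.4% a TATA match. A match is a string of letters and not a shown binding site. RefSeq windows were found for 7 of the 10 members. Among the others with a window, TATAAA was matched in Mylip (-32 to -27) and, at 1 of its 3 listed start sites, in Apoe. Cd36, Nr1h3 and Plin2 held no match to the 5 motifs in these windows.

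Nr1h3 and the 2 transporters Abca1 and Abcg1 were all higher on the arrays numbered 1, in every group. Abca1, which loads cholesterol and phospholipid onto lipid-poor apolipoprotein A-I, stood at 10.47, 7.48 and 7.77 on vehicle arrays 1, 2 and 3. With LCN2 on day 7 its levels were 10.18, 6.82 and 7.76, and with LCN2 from day 0 they were 10.49, 7.34 and 6.90. The 3 arrays numbered 1 thus lay between 10.18 and 10.49 while the other 6 lay between 6.82 and 7.77, a gap of 2.40. The mean was 10.38 ± 0.18 (SD, n = 3) against 7.35 ± 0.41 (SD, n = 6), a difference of 3.03 or 8.19-fold, and it was 2.85 within vehicle, 2.88 within LCN2 day 7 and 3.37 within LCN2 day 0. Of the 10042 genes tested, Abca1 had the difference ranked 3 from the highest, and only 4 genes differed by more than 3 in either direction.

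Nr1h3, the gene for LXR alpha, stood at 9.11, 8.14 and 7.60 with vehicle (arrays 1, 2 and 3). Its levels were 8.88, 7.87 and 8.07 with LCN2 on day 7, and 8.88, 8.03 and 7.81 with LCN2 from day 0. Every array numbered 1 was again above every other array, by a gap of 0.74, and the mean difference was 1.04 (2.05-fold). Abcg1, whose product moves cholesterol toward mature high-density lipoprotein, had levels of 10.05, 9.32 and 9.47 with vehicle, 9.81, 9.59 and 9.31 with LCN2 on day 7 and 9.90, 9.19 and 9.20 with LCN2 from day 0. It was higher on the arrays numbered 1 by 0.58 (1.49-fold), with a gap of 0.22.

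Apoe went the other way. Apolipoprotein E, which macrophages secrete and which accepts exported cholesterol, had levels of 11.47, 12.13 and 12.11 on vehicle arrays 1, 2 and 3. With LCN2 on day 7 they were 11.11, 12.19 and 12.10, and with LCN2 from day 0 they were 11.37, 11.68 and 11.55. The arrays numbered 1 lay below all others by a narrow gap of 0.08, with a mean difference of -0.65 (1.57-fold lower). Within LCN2 day 0 that difference was -0.25, against -1.04 within LCN2 day 7 and -0.65 within vehicle. Mylip, which encodes a ubiquitin ligase that limits lipoprotein uptake, ran from 7.82 to 8.35 over the 9 arrays, and its arrays numbered 1 (8.02 to 8.35) overlapped the others (7.82 to 8.11). Nr1h3, Abca1, Abcg1, Apoe and Mylip therefore did not keep together: 3 were higher, 1 was lower and 1 overlapped.

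Among the scavenger receptors the pattern rested on Olr1. Olr1 encodes LOX-1, a lectin-like receptor for oxidised LDL that is best known from endothelium. It stood at 9.04, 5.51 and 5.19 on vehicle arrays 1, 2 and 3, at 8.63, 5.49 and 5.53 with LCN2 on day 7, and at 8.82, 4.88 and 4.46 with LCN2 from day 0. The 3 arrays numbered 1 were bright and the other 6 dim, with a gap of 3.10 between them. All 6 dim values lie under the limit of 5.66, so only a lower bound of the fold is given. Against that limit the mean of 8.83 on the arrays numbered 1 was at least 8.98-fold higher, and the measured mean of the other 6 was 5.18. Cd36, the class B receptor for oxidised lipoproteins and fatty acids, had levels between 12.52 and 12.62 on the arrays numbered 1 and between 12.28 and 12.41 on the others. That separation was complete but the difference was small, at 0.24 (1.18-fold). Msr1, the class A macrophage scavenger receptor, ran from 10.82 to 11.02 on the arrays numbered 1 and from 10.79 to 11.02 on the others.

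The lipid handling genes did not separate the numbers. Lpl encodes the lipase that frees fatty acids from triglyceride-rich lipoproteins, and its levels were 12.55 to 12.72 on the arrays numbered 1 and 12.57 to 12.84 on the others. Plin2, the coat protein of lipid droplets in macrophages, stayed between 11.58 and 11.77 on all 9 arrays. Counted over the set, 5 of 10 members were all above (11.8% of all genes tested) and 1 of 10 was all below (23.6%) on the arrays numbered 1, with a median difference of 0.23 beside -0.064 over all genes tested. These values were in view when the genes were put together, so the counts carry no test.

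**Figure D1:**
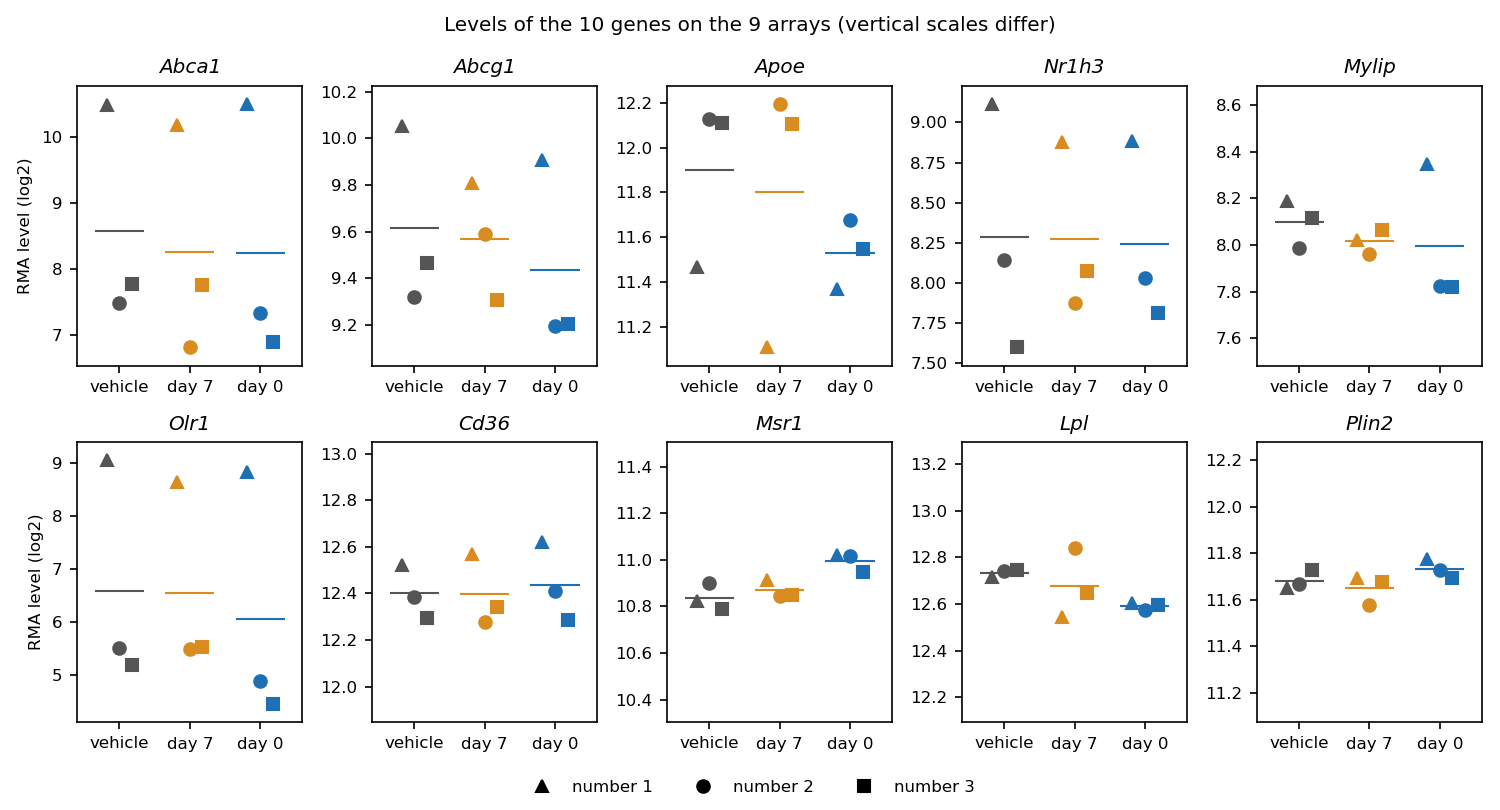
RMA level (log2) of each of the 10 genes on the 9 arrays, by group, with triangles for number 1, circles for number 2 and squares for number 3; lines are group means and the vertical scales differ. Abca1, Olr1, Nr1h3, Abcg1 and Cd36 have their triangles above all other arrays, and Apoe has them below.

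**Figure D2:**
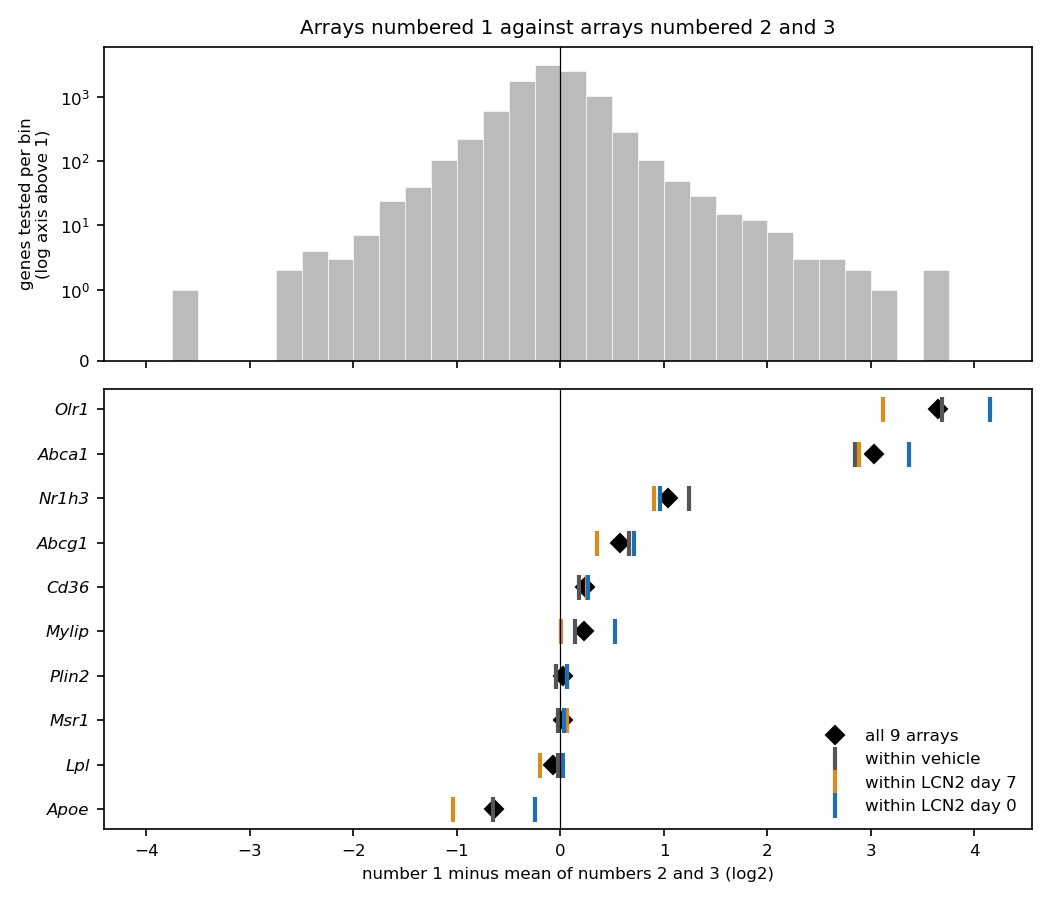
Upper panel, number of tested genes per bin (log axis above 1) of the difference of number 1 minus numbers 2 and 3 (log2), for 10042 genes. Lower panel, the same difference for each member over all 9 arrays (diamonds) and within each group (ticks): Olr1, whose 6 arrays numbered 2 and 3 are dim, is drawn at its RMA difference of 3.65, Abca1 lies at 3.03, and Lpl, Msr1 and Plin2 lie near 0.

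Some markers of other cell types and states also lay apart by this split, and their part in the levels of Abca1, Olr1 and the other members was not tested. Beside the counts below, 11.8% of all genes tested lay all above on number 1 and 23.6% all below, and the lists are short. Of the proliferation genes, 9 of 11 named in the table lay lower on number 1 without overlap (list mean 8.11 to 8.74 against 9.04 to 9.38). Of the monocyte markers 2 of 5 were lower (list mean 5.58 to 6.08 against 6.61 to 6.98), with Ccr2, the monocyte chemokine receptor, at 6.20 to 6.39 against 8.60 to 8.81. Of the neutrophil markers 5 of 9 were lower (list mean 5.69 to 6.46 against 6.99 to 7.49). Of the osteoclast markers 3 of 6 were higher (list mean 8.73 to 9.15 against 7.88 to 8.56), among them Acp5, the tartrate-resistant acid phosphatase, at 10.51 to 11.05 against 7.87 to 9.01. Ocstamp, a fusion gene of the same list, ran the other way with overlap (8.17 to 9.03 against 8.93 to 9.90). The macrophage list mean was 10.04 to 10.13 against 9.82 to 9.94, with 3 of 6 measured genes higher and 1 lower. The list mean of the IL-4 genes overlapped (10.09 to 10.29 against 9.88 to 10.21), but Chil3 (12.48 to 12.53 against 10.82 to 11.28) and Retnla were higher and Arg1 was lower without overlap. Of the dendritic cell markers 2 of 6 were higher, Itgax (11.40 to 11.61 against 10.46 to 11.16) and Ccr7, and 4 were under the dim limit. Adipocyte, B cell and T cell markers stayed dim on every array. In bulk RNA a change in the share of a cell type and a change in RNA per cell cannot be told apart.

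**Figure D3:**
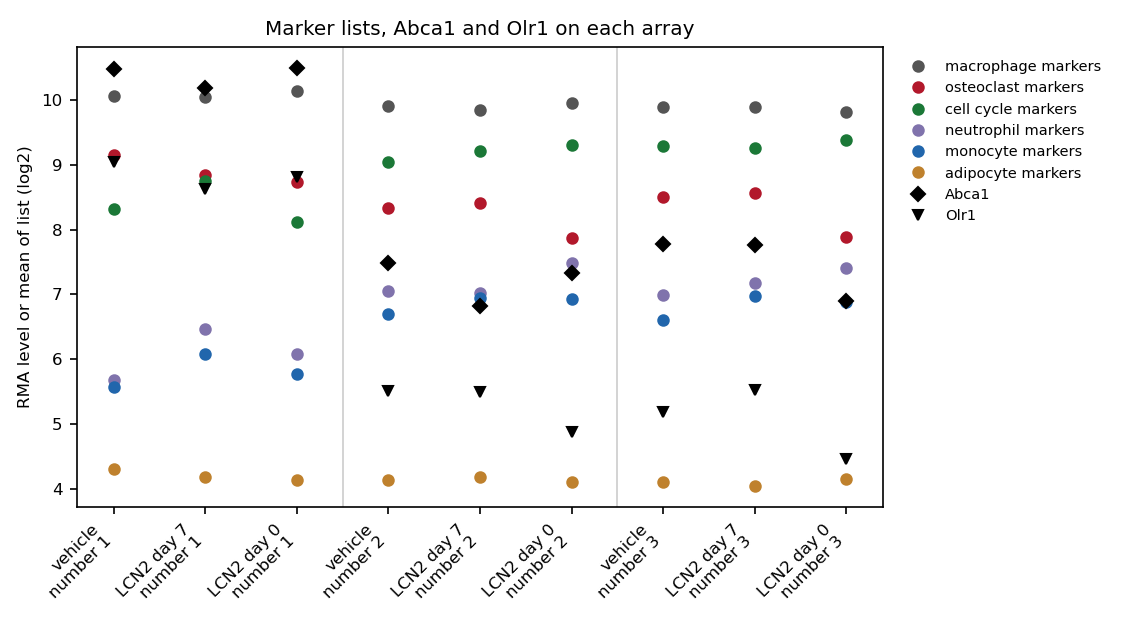
Mean RMA level (log2) of 6 marker lists on each array, and the levels of Abca1 and Olr1, with arrays ordered by title number. On the arrays numbered 1 the cell cycle, neutrophil and monocyte means are lower and the osteoclast mean is higher, while adipocyte markers stay between 4.05 and 4.31.

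Other genes of the pathway are given by the same split, to be read beside the 11.8% of all genes tested that lay all above and the 23.6% that lay all below. Of the 23 other LXR partners and targets, 13 are named in the table and 9 were tested: 4 were higher on the arrays numbered 1, 1 was lower and 4 overlapped, with a median difference of -0.005 beside -0.064 over all genes tested. Higher were Mertk, a receptor for apoptotic cells (8.35 to 8.40 against 7.28 to 7.87), Pltp, the phospholipid transfer protein (11.98 to 12.31 against 11.40 to 11.62), Smpdl3a and Lpcat3, an enzyme that remodels membrane phospholipids. Cd5l, a secreted macrophage protein also called AIM, was lower (8.48 to 8.81 against 8.97 to 9.80). The RXR gene Rxra and the fatty acid synthesis genes Fasn and Acaca overlapped between the numbers.

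Of the 10 other scavenger and lipoprotein receptors tested, 2 were higher and 1 lower. Cxcl16, a membrane chemokine that also binds oxidised LDL, was at 10.29 to 10.68 on the arrays numbered 1 and at 8.59 to 9.40 on the others, a difference of 1.48. Marco, another class A scavenger receptor, differed by 0.36 and Lrp1, the large endocytic receptor for ApoE-bearing particles, by -0.40. Scarb1, the receptor for high-density lipoprotein, overlapped (8.37 to 8.48 against 8.31 to 8.64).

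Fatty acid genes gave the largest differences outside the 10 members in these lists, with 4 of 13 higher and 2 lower. The fatty acid binding protein genes Fabp4 and Fabp5 differed by 1.87 and 1.65. Angptl4, which encodes an inhibitor of lipoprotein lipase, was at 8.47 to 8.69 on the arrays numbered 1 and 6.35 to 7.12 on the others. Pparg, the nuclear receptor that drives Cd36 and Fabp4, ran opposite to them, at 9.63 to 9.69 on the arrays numbered 1 and 10.13 to 10.46 on the others. Slc27a1, a fatty acid transport protein gene, was lower too, by 0.42 on the log2 scale (-0.42).

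Of 14 cholesterol transport and oxysterol genes tested, 3 were higher and 2 lower. Npc2 and Npc1, whose products pass cholesterol out of the lysosome one after the other, moved apart: Npc2 differed by 0.67 and Npc1 by -0.38. Ch25h, the enzyme that makes 25-hydroxycholesterol, overlapped (8.46 to 9.92 against 8.49 to 9.60). Of 11 lipid droplet and ester turnover genes, 2 were higher, Pnpla2, the triglyceride lipase ATGL (9.78 to 10.36 against 9.28 to 9.56), and Plin3, another droplet coat protein (8.91 to 9.02 against 8.50 to 8.87), and 0 were lower. Lipa and Nceh1, which hydrolyse cholesteryl esters in the lysosome and at the endoplasmic reticulum, stayed within 12.25 to 12.43 and 11.91 to 11.97.

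**Figure D4:**
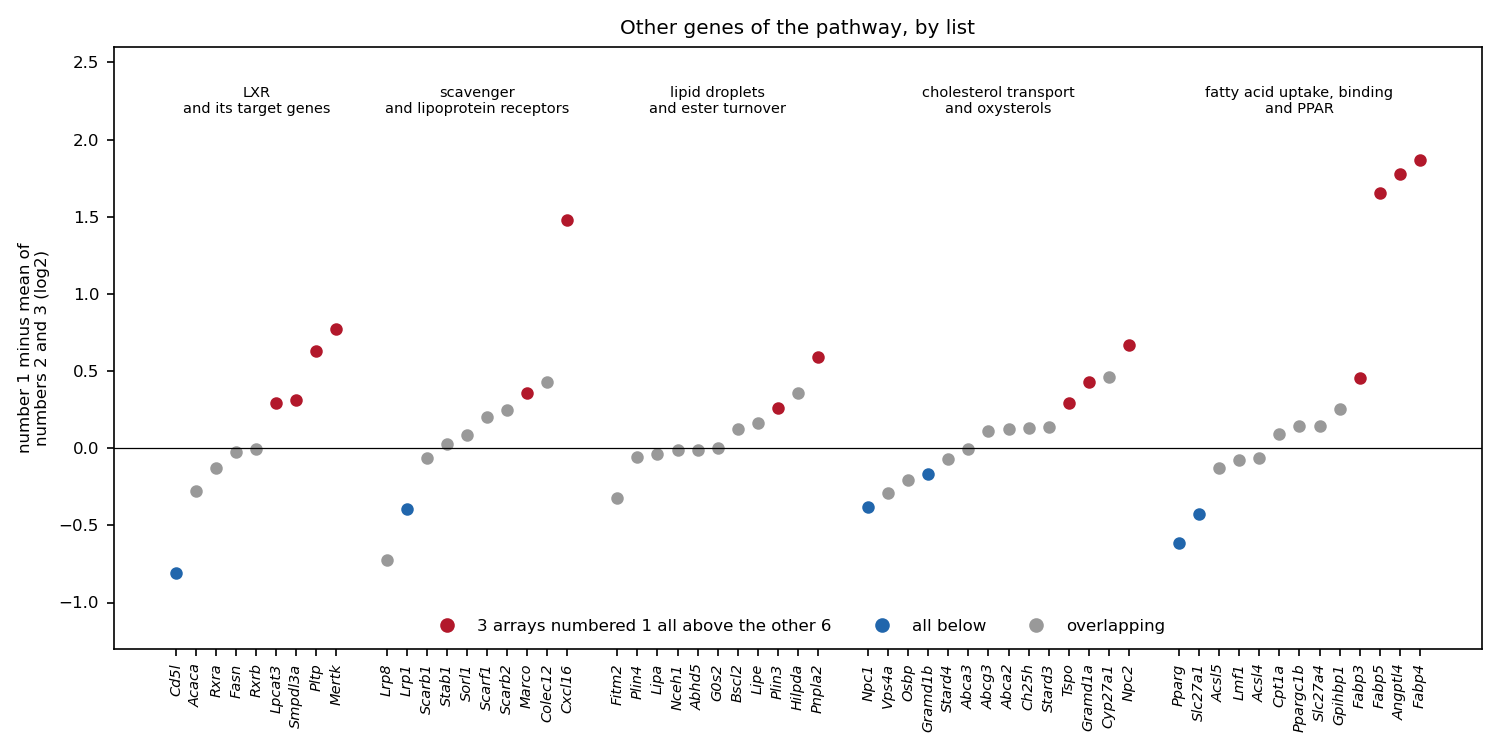
Difference of number 1 minus numbers 2 and 3 (log2) for every tested gene of 5 lists of the pathway, in order within each list. Red points mark genes whose 3 arrays numbered 1 lie all above the other 6, blue points all below and grey points overlapping; Fabp4 at 1.87, Angptl4 at 1.78, Fabp5 at 1.65 and Cxcl16 at 1.48 are the 4 highest.

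Next the effect of LCN2 was examined, which is the comparison the groups were made for. For LCN2 on day 7 against vehicle, limma called 0 of the 10 members, where 0% of all genes tested were called (70 at an unadjusted p under 0.05, and 259 with the title number as a replicate block). Of the members, 9 lay below 0 and 1 above, with a median of -0.039, where 49.1% of all genes lay below 0 and their median was 0.003. On the arrays numbered 2 and 3 alone, 6 members lay above 0 and 4 below, with a median of 0.0015. Those 6 include Olr1, which is dim there, and Lpl and Msr1 at only 0.00029 and 0.0027. The tally of 9 below and 1 above was thus not kept without the arrays numbered 1. For 0 of 10 members were the groups free of overlap (3.17% of all genes). Abca1 differed by -0.32 ± 1.18 (SE, n = 3 per group), with 8.58 ± 1.65 (SD) in vehicle and 8.25 ± 1.73 with LCN2, and by -0.30, -0.66 and -0.006 within numbers 1, 2 and 3. Its SE was 0.23 with the replicate block, which takes the number shift out of the spread, and the adjusted p was 1.00 without the block and 0.999 with it. Differences of the other 9 members lay between -0.099 (Apoe) and 0.033 (Msr1). On the arrays numbered 2 and 3 alone, Abca1 differed by -0.33 ± 0.31 (SE, 2 arrays per group), and the other members except Olr1 by -0.071 (Plin2) to 0.10 (Nr1h3), each with an adjusted p of 1.00 in limma. No difference is given for Olr1 there, since its 4 arrays are all under the dim limit.

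For LCN2 from day 0 against vehicle, the members lay below 0 for 7 of 10 genes, with a median of -0.12, beside 54.8% and -0.015 over all genes tested. Without the arrays numbered 1, 6 of 10 lay below 0, the dim Olr1 among them, with a median of -0.18. Again 0 members and 0% of all genes were called (142 at an unadjusted p under 0.05, and 497 with the replicate block), and no adjusted p of a member was under 0.960 in either fit. Olr1 differed by -0.53 ± 1.41 (SE), or ± 0.20 with the replicate block, and was lower in all 3 numbers, by differences of -0.22, -0.63 and -0.73, of which the last 2 are between values under the dim limit. Apoe differed by -0.37 ± 0.29 (SE), or ± 0.16 with the block, from 11.90 ± 0.38 (SD) to 11.53 ± 0.16, and was also lower in all 3 numbers, by -0.10, -0.45 and -0.56. Limma's adjusted p with the block was 0.960 for both genes. Abcg1 was lower in all 3 numbers too (-0.15, -0.13 and -0.26), whereas Abca1 differed by 0.016, -0.15 and -0.87 and so did not keep 1 direction. On the arrays numbered 2 and 3 alone, with 2 arrays per group, the differences were -0.50 ± 0.11 for Apoe, -0.51 ± 0.31 for Abca1 and -0.19 ± 0.13 for Abcg1, and limma's adjusted p was 0.863 for Apoe and 0.994 for the other 2. Olr1 was dim on all of these arrays, so no size is given for it.

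Msr1 and Lpl were the members whose day 0 and vehicle groups did not overlap. Msr1 stood at 10.82, 10.90 and 10.79 with vehicle and at 11.02, 11.02 and 10.95 with LCN2 from day 0, with LCN2 on day 7 at 10.91, 10.85 and 10.85. All 3 arrays of LCN2 from day 0 were above all 3 vehicle arrays and all 3 day 7 arrays. Its difference from vehicle was 0.16 ± 0.095 (SE), or ± 0.085 with the replicate block. That is 1.11-fold, with differences of 0.20, 0.12 and 0.16 within numbers 1, 2 and 3. Lpl stood at 12.72, 12.74 and 12.75 with vehicle and at 12.61, 12.57 and 12.60 with LCN2 from day 0. Its LCN2 day 7 arrays at 12.55, 12.84 and 12.65 reached past both groups on either side. The Lpl difference between day 0 and vehicle was -0.14 ± 0.11 (SE), or ± 0.097 with the block, and -0.11, -0.17 and -0.15 within the numbers. These 2 of 10 members did not overlap, where 5.49% of all genes tested did not, and limma's adjusted p was 0.999 for each. With the block, limma's adjusted p was 0.988 for Msr1 and 0.994 for Lpl. Without the arrays numbered 1, Msr1 differed by 0.14 ± 0.11 and Lpl by -0.16 ± 0.11, each with an adjusted p of 0.994 in limma.

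Between the LCN2 groups, limma called 0 members and 0% of all genes (177 at an unadjusted p under 0.05, and 539 with the replicate block). This is also the test of whether both LCN2 schedules differ from vehicle by the same amount. The median of the members was -0.028 (-0.17 on the arrays numbered 2 and 3 alone, dim Olr1 included), beside -0.017 over all genes tested. Of the members, 1 of 10 (Msr1) did not overlap, where 5% of all genes did not. Msr1 differed by 0.12 ± 0.095 (SE), or ± 0.085 with the replicate block. Olr1 differed by -0.50 ± 1.41, or ± 0.20 with the block, and by 0.19, -0.62 and -1.07 within the numbers. Apoe differed by -0.27 ± 0.29, or ± 0.16 with the block, and by 0.26, -0.52 and -0.56. Limma's adjusted p with the block was 0.965 for Msr1, 0.898 for Olr1 and 0.952 for Apoe. For Olr1 and Apoe the arrays numbered 1 went against the other 2 numbers, on which Olr1 is under the dim limit. On the arrays numbered 2 and 3 alone, Apoe differed by -0.54 ± 0.11, with an adjusted p of 0.668 in limma, and Msr1 by 0.13 ± 0.11, with an adjusted p of 0.916. LCN2 time and dose are not separated in this comparison, and both comparisons with vehicle share the same 3 vehicle arrays.

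**Figure D5:**
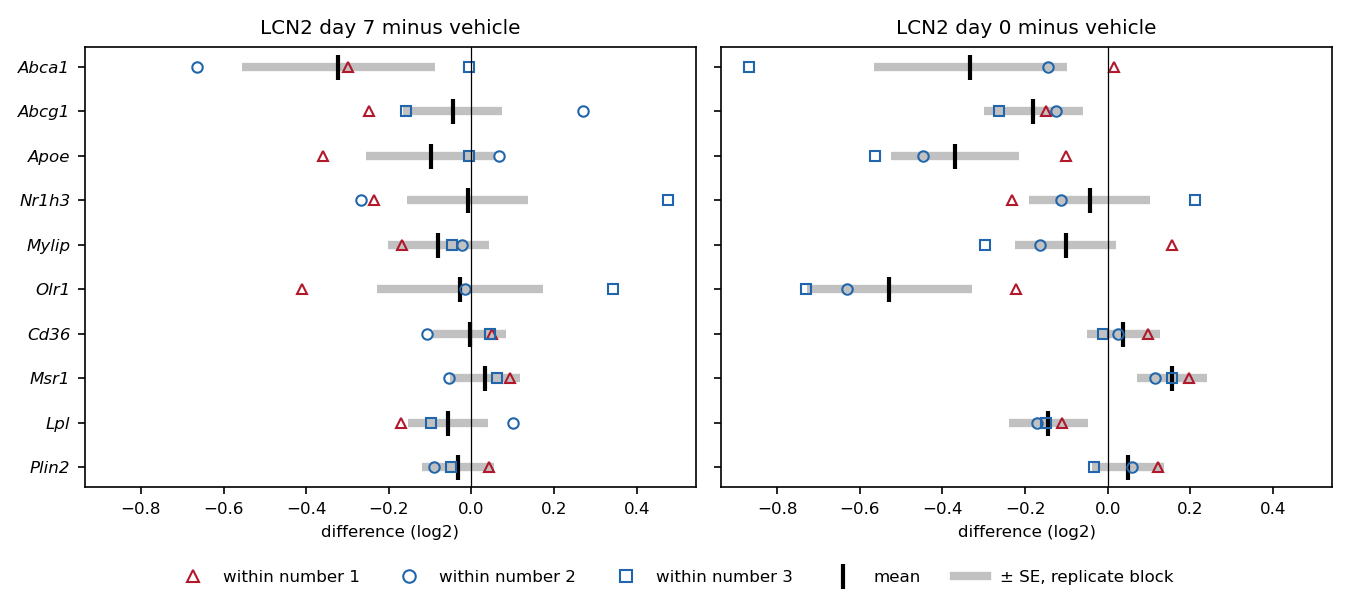
Difference from vehicle (log2) of each member for LCN2 on day 7 (left) and LCN2 from day 0 (right). Open symbols are the differences within title numbers 1, 2 and 3, black ticks their mean and grey bars the SE with the replicate block; on the right Olr1, Apoe, Abcg1 and Lpl have all 3 symbols below 0 and Msr1 has all 3 above.

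Beside the day 0 values, the osteoclast list mean was also lower than in vehicle within each number (8.73, 7.88 and 7.89 with LCN2 against 9.15, 8.33 and 8.50 with vehicle). The neutrophil list mean was higher (6.09, 7.49 and 7.40 against 5.69, 7.05 and 6.99). The monocyte list mean was higher too (5.77, 6.93 and 6.88 against 5.58, 6.70 and 6.61), as it was with LCN2 on day 7 (6.08, 6.95 and 6.98). Within that list Ly6c2 and Plac8 were higher from day 0 in each number, but Ccr2 was lower. Ccr2 stood at 6.20, 8.60 and 8.63 with LCN2 from day 0 against 6.30, 8.80 and 8.81 with vehicle. With LCN2 on day 7 Ccr2 was at 6.39, 8.64 and 8.63. The part of these marker lists in the differences of Olr1, Apoe, Msr1 and Lpl was not tested. In the 5 other lists of the pathway 0 genes passed in any of the 3 comparisons, so the genes with the largest differences are given as values over all 9 arrays. For LCN2 from day 0 against vehicle, 6 of 9 genes of the LXR list lay below 0 (median -0.042), 8 of 10 receptors lay above (0.12), and 11 of 14 cholesterol transport genes lay below (-0.072). Of the lipid droplet genes 7 of 11 lay above 0 (0.039) and of the fatty acid genes 7 of 13 (0.022), where the median of all genes tested was -0.015. For LCN2 on day 7 the medians of the 5 lists lay between -0.028 (cholesterol transport) and 0.091 (receptors), and between the LCN2 groups between -0.075 (fatty acid) and 0.069 (lipid droplets).

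Of the LXR list, Cd5l differed from vehicle by 0.20 with LCN2 on day 7 and by -0.27 with LCN2 from day 0, a difference between them of -0.47, and it was joined by Rxra at 0.18 on day 7, Fasn at -0.14 from day 0 and Acaca at -0.25 between the LCN2 groups. Among receptors, Lrp8, a receptor for ApoE and reelin, differed by 0.46 in both LCN2 groups, Sorl1 by 0.22 on day 7, Cxcl16 by -0.33 from day 0 (-0.25 from the day 7 group) and Stab1, a scavenger receptor of alternatively activated macrophages, by 0.42 between the LCN2 groups. In the lipid droplet list, G0s2, an inhibitor of ATGL, differed by -0.19 on day 7, and Plin4 by 0.12 on day 7 and 0.31 from day 0 (0.20 between the LCN2 groups). Fitm2, which is needed for droplet formation, differed by 0.19 from day 0 and by 0.27 between the LCN2 groups.

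Ch25h differed by 0.31 on day 7 and 0.38 from day 0, and Abcg3 by -0.23 on day 7. Cyp27a1, which makes 27-hydroxycholesterol, differed by -0.36 from day 0 and by -0.25 between the LCN2 groups, where Gramd1a, a carrier of cholesterol from the plasma membrane to the endoplasmic reticulum, differed by -0.21. In the fatty acid list, Fabp4 differed by 0.18 and Lmf1, a maturation factor of lipases, by 0.16 on day 7. Fabp5 differed by -0.28 and Gpihbp1 by 0.28 from day 0, and by -0.33 and 0.20 between the LCN2 groups. Of the genes named for these differences, Fabp4, Fabp5, Cxcl16 and Gramd1a (all higher on number 1) and Cd5l (lower) also separated the array numbers. Without the block, the SE was 0.75 for Fabp4, 0.65 for Fabp5 and 0.60 for Cxcl16, more than the differences given for them. For Ch25h the SE was 0.39 and for Cd5l 0.34, also more than their differences from vehicle. The Cd5l difference of -0.47 between the LCN2 groups was larger than its SE. For Lrp8 the SE was 0.34.

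The genes whose levels over the 9 arrays were most like those of Abca1, outside the lists, were Pkp2 (Pearson r 0.996), Tspan13 (0.995), Gabarapl1 (0.993), St3gal3 (0.992) and Myrf (0.991). For Olr1 they were Ear10 (0.994), Pirb (0.994), Trf, the gene for transferrin (0.993), Wsb2 (0.993) and Rgs16 (0.992). The 9 arrays fall into 2 sets by number, so these values describe that split. With each number's mean taken out, the genes most like Abca1 were Rgl1 (0.994), Slx1b (0.986), Hivep1 (0.985), Wdr18 (0.984) and Ticam1 (0.983), and those most like Olr1 were Traf5 (0.990), Slc25a11 (0.989), Tmed3 (0.977), Tmem259 (0.977) and Penk (0.975). Of the members, Apoe was then the most like Olr1 (0.949), although over the plain levels the pair ran in opposite directions (-0.686). Olr1 is under the dim limit on the arrays numbered 2 and 3. Its likenesses with the number means taken out, that with Apoe among them, therefore rest largely on dim signal. Abca1 and Abcg1 had 0.881 over the levels and 0.055 once the number means were removed. All of these correlations run over 9 arrays that share their groups, and they are descriptions only.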

How the data were processed

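Mouse macrophage RNA was hybridised to 9 arrays in 3 groups. The deposited values are on the log2 scale. Per the submitters' processing notes the tools were oligo and RMA, without versions; RMA corrects background, quantile-normalises and summarises probes. The values were used as deposited. Of 22203 probe sets, 19572 had 1 gene symbol, 0 several and 2631 none; 19572 were matched by Entrez identifier to RefSeq (GRCm38.p6). Genes with several probe sets kept the one with the highest mean, and genes with a mean under 5.66 were left out.

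Groups were compared with limma 3.58.1 (R 4.3.3), 1 mean per group, all 9 arrays in 1 fit, with Benjamini-Hochberg adjustment across the 10042 tested genes and a threshold of 0.05. The fit was tested on simulated data with independent noise and no shift by title number. That test therefore does not cover the number split of these arrays. The number of arrays limits the precision. Titles number the arrays 1 to 3. Deviations from the group means correlated over 0.1 in all 9 same-number pairs (0.16 to 0.82). The arrays numbered 1 stood apart in every group, and centring on the group mean then moves that group's other arrays the same way. Arrays of different numbers were not correlated, so this check cannot show whether those other arrays are matched by number. The main fit took no account of the number. An alternative fit used the number as a replicate block, and its values are given where they bear on a result. The arrays numbered 1 were described without a test.

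Alternatives changed the block, the dim limit, the probe-set rule, the variance model, the array medians or left out arrays; the fit of numbers 2 and 3 alone was added after seeing the data. Members and lists were chosen with earlier results of these data known. Named were all members, the 2 most different and 2 brightest genes of each list per comparison where 0 passed, and the 5 genes most like Abca1 and Olr1; genes named for separating the numbers, and other genes of the lists, were chosen after their values were seen.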

Additional observations from a re-analysis of the deposited data

How the results depend on the processing

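The count of genes called between groups was 0 in all 3 comparisons under each of 16 alternatives, the replicate block among them (limma, where 0 of 10042 were called with 259, 497 and 539 at an unadjusted p under 0.05). For the 30 differences of the members, 0 of 480 values under the alternatives were called, with limma's adjusted p between 0.668 and 1.00. Of these values 52 had the opposite sign, but many of the 480 could not change. The block, the dim limit, the probe-set rule and the variance model leave a member's difference as it was. Leaving out an array of a group outside the comparison does so too. The 52 are therefore not to be read as a share of 480. Leaving out 1 array at a time unbalances the numbers, so the number shift enters the differences of that array's group. The median of the members then ran from -0.087 to 0.040 for LCN2 on day 7 against vehicle. It ran from -0.28 to 0.091 for LCN2 from day 0 against vehicle and from -0.19 to 0.12 between the LCN2 groups. Its sign turned for day 7 against vehicle without vehicle array 1 (0.040) or LCN2 day 7 array 2 (0.024). For day 0 against vehicle it turned without vehicle array 1 (0.069) or LCN2 day 0 arrays 2 (0.051) or 3 (0.091). Between the LCN2 groups it turned without LCN2 day 7 array 1 (0.12) or LCN2 day 0 arrays 2 (0.068) or 3 (0.11). With the number shift in these values, they cannot show whether the direction of a median rests on single arrays. On the arrays numbered 2 and 3 alone, dim Olr1 included, the medians were 0.0015, -0.18 and -0.17 in the same order. Msr1 (0.13 to 0.19), Lpl (-0.15 to -0.13) and Apoe (-0.59 to -0.26) kept their sign against vehicle in the day 0 comparison. Mylip (-0.28 to -0.012) and Plin2 (0.028 to 0.071) did so too. The other members did not, with Olr1 from -1.91 to 0.70 and Abca1 from -1.46 to 0.62, ranges that hold the number shift. The number difference ran from 2.93 to 3.14 for Abca1 and from 3.51 to 3.75 for Olr1, in RMA values that are dim on numbers 2 and 3. Arrays carry no read depth, and 3 arrays per group limit the precision.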
